A study of Homo sapiens with 12 samples.

Results

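The microRNAs described here are the strands of the miR-320 family, with the letters a to e, and of miR-877. The miR-320a and miR-877 precursors are known to be made without the Drosha and DGCR8 step that most microRNA precursors pass through. The strands were taken by name from both deposited comparisons. The rule found 4 strands of 952 in all: hsa-miR-320a-5p, hsa-miR-320e, hsa-miR-877-5p and hsa-miR-877-3p. All 4 had a row among the 837 microRNAs of the first comparison. In the second, 3 had a row among 868, and miR-320e did not. The other arm of the first hairpin, hsa-miR-320a-3p, and miR-320b, miR-320c and miR-320d were not analysed here.

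Small RNA was sequenced from K562, a human erythroleukaemia cell line, in 12 libraries that form 4 groups of 3. The sgCYRANO cells received a guide RNA against CYRANO, a long non-coding RNA with a well-paired site for miR-7, and were set against sgNT cells with a non-targeting guide. ZSWIM8 KO cells have the genotype ZSWIM8-/- and received no guide. They were set against the WT line, which also received none. ZSWIM8 is the substrate receptor of a ubiquitin ligase that acts in target-directed microRNA decay, the loss of a microRNA after extensive pairing with certain targets. The depositors call the 3 libraries of a group biological triplicates of each line. The kind of Cas protein used with the guides, and how many clones stand behind the knockout line, are not given in the sources used here.

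MicroRNA precursors are usually cut out of long transcripts by Drosha and then trimmed by Dicer. The miR-320a precursor, studied largely in mouse cells, is instead transcribed directly as a short hairpin whose 5′ end carries a cap, so that Dicer alone shapes it and the 3′ arm, not the capped 5′ arm, is the one mainly loaded into Argonaute. A mirtron such as miR-877 is a whole short intron. Splicing sets its ends, and the debranched lariat folds into a hairpin that Dicer can cut.

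The mirtron origin of miR-877 can be read from its position. In the RefSeq entries for GRCh38.p14, the MIR877 hairpin lies at chr6:30584332-30584417 on the plus strand and is 86 bases long. In GENCODE v29, of the same genome, an intron of ABCF1, which encodes an ATP-binding cassette protein that acts in translation initiation, has the same start, end and strand. The hairpin is printed below with the first and last bases of that intron in capitals, and both mature strands follow with their seeds, bases 2 to 8, in capitals.
MIR877 hairpin: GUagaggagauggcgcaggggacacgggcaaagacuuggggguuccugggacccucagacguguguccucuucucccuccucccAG
miR-877-5p: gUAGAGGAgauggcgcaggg
miR-877-3p: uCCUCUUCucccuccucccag
The 5p strand begins at the first base of the intron and the 3p strand ends at its last. Among microRNAs with a row in either comparison that were matched to a sequence here, no other shared bases 2 to 8 with a miR-877 strand. GC made up 65% of the 5p strand and 61.9% of the 3p strand.

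The mature miR-320e comes from chr19:46709294-46709311 on the minus strand, within an intron of PRKD2, a gene for a protein kinase. Here the hairpin is not the whole intron: it begins 1552 bases inside the intron's 5′ end. The family members miR-320b and miR-320d, and miR-4429, which comes from chr2:11540652-11540671 on the minus strand, are shown beside it with their seeds in capitals, because near-identical strands can share reads.
miR-320e: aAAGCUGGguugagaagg
miR-320b: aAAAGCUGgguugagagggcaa
miR-320d: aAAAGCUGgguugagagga
miR-4429: aAAAGCUGggcugagaggcg
The capitals of miR-320b, miR-320d and miR-4429 were the same run, and those of miR-320e were another. Of the measured microRNAs that were matched to a sequence here, miR-4429 alone had the bases 2 to 8 of miR-320b. Not every measured microRNA was matched, and miR-320a-5p was not. As for miR-4429, it carries no miR-320 name and was added after its values were seen.

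Depth was modest. Library totals, read from the smallest values of each group, were 1669000 to 1849900 reads in sgCYRANO and 1545600 to 2304100 in sgNT, 2090300 to 2486500 in ZSWIM8 KO and 860900 to 1850900 in WT. One read was thus worth 0.402 CPM (its share of the library's reads, scaled to a common total) in the deepest library and 1.16 CPM in the shallowest. The erythroid markers miR-486-5p, miR-451a, miR-144-5p and miR-144-3p were all measured, and summed to 13218 CPM in sgCYRANO and 12807 CPM in sgNT, and to 15074 CPM in ZSWIM8 KO and 15502 CPM in WT. Most of each sum was miR-486-5p, with 13386 CPM in ZSWIM8 KO and 14448 CPM in WT. The other 3 had the higher mean in ZSWIM8 KO, as did the miR-877 strands: miR-144-3p averaged 239 CPM in ZSWIM8 KO and 119 CPM in WT, miR-144-5p 492 CPM in ZSWIM8 KO and 360 CPM in WT, and miR-451a 956 CPM in ZSWIM8 KO and 574 CPM in WT. By the authors' deposited edgeR test none of the 3 passed an adjusted p of 0.05, and their part in the miR-877 values was not tested. Of 10 markers of other cell types, 5 had rows, and the endothelial marker miR-126-3p was high, with means of 33689 CPM in sgCYRANO, 35367 CPM in sgNT, 48223 CPM in ZSWIM8 KO and 42774 CPM in WT. The epithelial marker miR-200c-3p averaged 70.8 CPM in sgCYRANO, 68.8 CPM in sgNT, 87.9 CPM in ZSWIM8 KO and 94.6 CPM in WT. Group means of miR-122-5p, miR-141-3p and miR-1-3p were at most 2.08 CPM. The tables do not record the direction of their fold changes. The group named second was read as the one on top, and under that reading miR-7-5p had a log2 fold change of 2.52 for sgCYRANO and 2.35 for ZSWIM8 KO in the authors' deposited tables. If either table runs the other way, its 2 groups change places in every value given here, the library totals and marker levels included.

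None of the 4 strands passed an adjusted p of 0.05 in sgCYRANO cells. Across that comparison 1 of 837 microRNAs did, or 0.119%, which was miR-7-5p, so a count of 0 among 4 is near the background. At an unadjusted p under 0.05 the count was 49 of 837, or 5.85%, and it held none of the 4. In ZSWIM8 KO cells 86 of 868 microRNAs passed, or 9.91%, and none of the 3 strands measured. Of the 86, 41 were higher and 45 lower in ZSWIM8 KO cells (4.72% and 5.18% of all), against 30 higher and 62 lower when fold changes were centred on their median at 10 CPM or more, which lies at 0.13. Adjusted over microRNAs at 10 CPM or more alone, 62 were higher and 40 lower. The count at an unadjusted p under 0.05 was 172, or 19.8%, and it held 1 of the 3, miR-320a-5p.

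**Figure D1:**
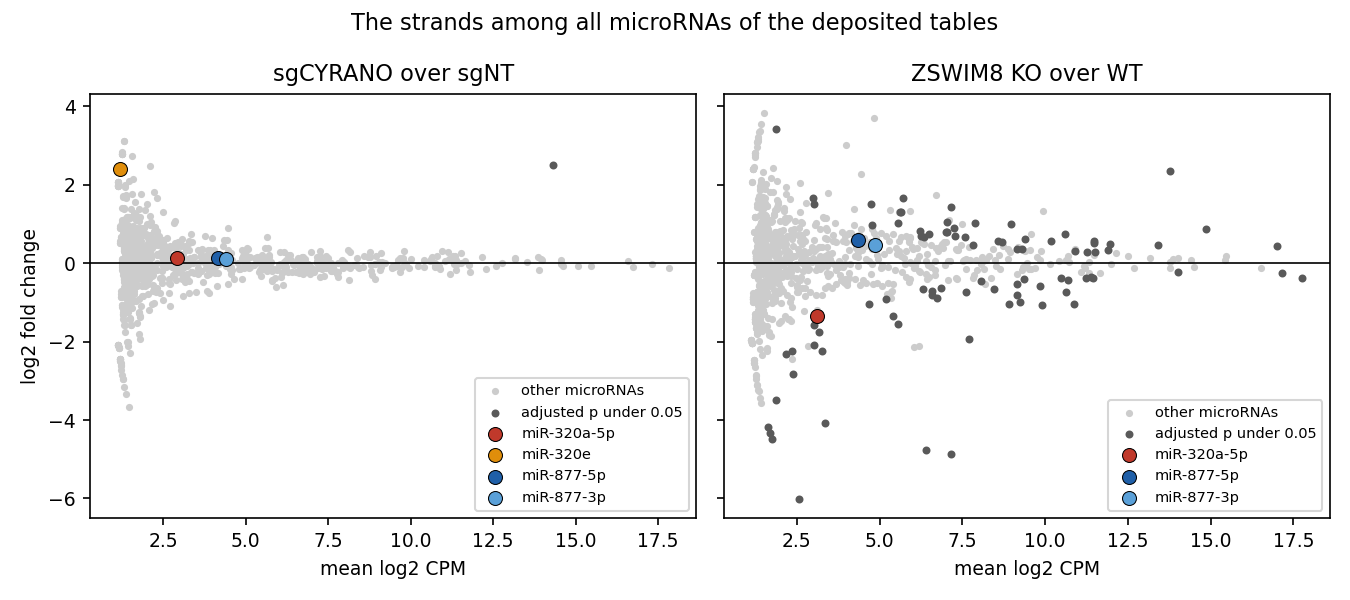
Each point is a microRNA of the authors' deposited tables, with its mean log2 CPM on the x axis and its log2 fold change on the y axis, sgCYRANO over sgNT on the left and ZSWIM8 KO over WT on the right. Dark points passed an adjusted p of 0.05 and the coloured points are the miR-320 and miR-877 strands, none of which passed. On the right miR-320a-5p lies at -1.34, and on the left miR-320e lies among the scarcest microRNAs.

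The capped hairpin's 5p strand, miR-320a-5p, was scarce in every group. Its mean was 5.88 CPM in sgCYRANO and 5.30 CPM in sgNT. In the other comparison it was 3.69 CPM in ZSWIM8 KO and 9.53 CPM in WT. By mean level it ranked 352 among 837 microRNAs and 345 among 868. The order of the 4 groups, which sets values across tables that were scaled separately, was WT, sgCYRANO, sgNT and ZSWIM8 KO.

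For the first comparison the reads of miR-320a-5p in each library could be recovered. They were 10, 10 and 11 in sgCYRANO, or 5.41, 5.64 and 6.59 CPM, and 15, 8 and 7 in sgNT, or 6.51, 4.87 and 4.53 CPM. The highest sgCYRANO and sgNT libraries were nearly level, and the groups overlapped. Means ± SD were 5.88 ± 0.627 CPM in sgCYRANO and 5.30 ± 1.06 CPM in sgNT (n = 3 each), and a two-sided exact permutation test over the 6 libraries, added after the data were seen, gave p = 0.4, where the smallest this design allows is 0.1. Its log2 fold change in the authors' deposited table was 0.15, with an edgeR adjusted p of 0.984 and a 95% interval of -0.81 to 1.10 computed from its p. The interval leaves room for changes of up to about that size in either direction.

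In ZSWIM8 KO cells miR-320a-5p had the largest deposited change of the 3 strands. It was -1.34 on the log2 scale in the authors' deposited table, with a standard error of 0.49 and a 95% interval of -2.29 to -0.39, both computed from its p. The unadjusted p was 0.00581 and the edgeR adjusted p 0.0554, just outside the threshold. Centring the fold changes on their median or their trimmed mean at 10 CPM or more gave adjusted p-values of 0.0268 and 0.0240, inside it. With only the 4 residual degrees of freedom of 6 libraries in 2 groups, the F statistic of the authors' deposited table gave 0.436. The means correspond to about 26 reads over the 3 ZSWIM8 KO libraries and about 36 over the 3 WT libraries, from group totals of 7059000 and 3807500 reads. Reads of single libraries could not be recovered for this comparison, so whether the groups overlapped was not tested.

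**Figure D2:**
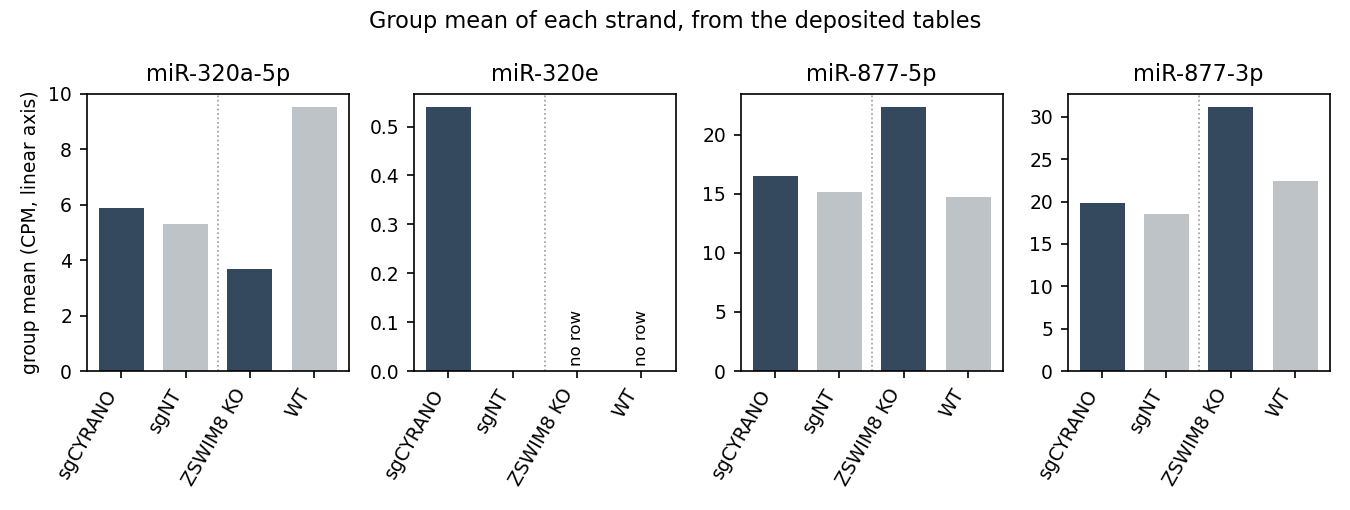
Bars give the group mean of each strand in CPM on linear axes that start at 0, computed from the authors' deposited tables, with sgCYRANO, sgNT, ZSWIM8 KO and WT from left to right. They have no error bars because values per library were not used in this plot. The mean of miR-320a-5p was 3.69 CPM in ZSWIM8 KO and 9.53 CPM in WT, whereas both miR-877 strands had the higher mean in ZSWIM8 KO.

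The difference between both comparisons was tested for miR-320a-5p directly. The log2 fold change for ZSWIM8 KO was lower than that for sgCYRANO by a difference of -1.48 (95% interval -2.83 to -0.14). A normal reference, with standard errors found from the deposited p-values, gave an unadjusted p of 0.0309. Adjusted over the 753 microRNAs in both tables, p was 0.235. The strand lies under 10 CPM, so it was outside the set of 294 for which this test had been set. The effect of losing ZSWIM8 is thus not shown to differ from that of the CYRANO guide for this strand.

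The other miR-320 strand, miR-320e, was at the limit of detection. It had 3 reads in 1 sgCYRANO library of 1849900 reads and 0 in the other 2, and 0, 0 and 0 in sgNT. That gives a mean of 0.541 CPM in sgCYRANO, while 0 of 5491300 sgNT reads allow a level of up to 0.546 CPM at 3 reads, for counting error only. Both groups were thus at or under 3 reads, and no fold is given. The authors' deposited table lists a log2 fold change of 2.41 with an edgeR adjusted p of 0.980, a value set by the prior count and by 1 library, without which the strand had no read in either group. It had no row in the ZSWIM8 comparison.

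Summed over its rows, miR-320 came to 6.42 CPM in sgCYRANO and 5.30 CPM in sgNT, a log2 ratio of 0.28. In the second comparison, where the sum is miR-320a-5p alone, it was 3.69 CPM in ZSWIM8 KO and 9.53 CPM in WT, a log2 ratio of -1.37. No test was made of the sums. No miR-320 row reached 10 CPM in either comparison.

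**Figure D3:**
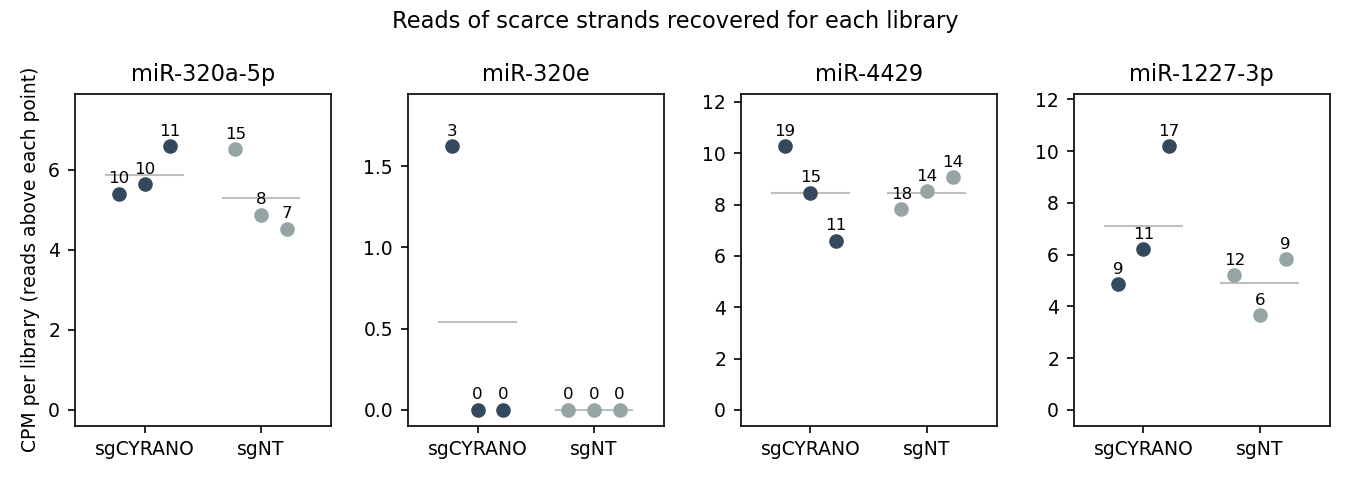
Each point is a library of the sgCYRANO comparison, with its level in CPM on a linear y axis and its recovered reads above it, and grey lines are group means. The 4 panels show miR-320a-5p, miR-320e, miR-4429 and miR-1227-3p, with sgCYRANO on the left and sgNT on the right. All 3 reads of miR-320e fell in 1 sgCYRANO library, and the groups overlapped for the other 3 microRNAs.

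With the seed of miR-320b, miR-4429 had 19, 15 and 11 reads in sgCYRANO, or 10.3, 8.46 and 6.59 CPM, and 18, 14 and 14 in sgNT, or 7.81, 8.53 and 9.06 CPM. The sgCYRANO libraries spanned those of sgNT, and the exact permutation test, two-sided, gave p = 0.9. In the authors' deposited table of the second comparison its log2 fold change was 0.87, with means of 9.24 CPM in ZSWIM8 KO and 4.98 CPM in WT and an edgeR adjusted p of 0.289. Its sign there was opposite to that of miR-320a-5p, and neither passed the threshold.

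The mirtron strands of miR-877 had higher means than miR-320a-5p in both comparisons, and than miR-320e in the first, where it had a row, and both arms of the hairpin were present in every group. The 5p strand, miR-877-5p, had a mean of 16.5 CPM in sgCYRANO and 15.1 CPM in sgNT, or about 87 and 83 reads over the 3 libraries of each group. The 3p strand, miR-877-3p, had 19.9 CPM in sgCYRANO and 18.5 CPM in sgNT, about 105 and 102 reads. Reads per library were decoded under 13 CPM only, so these strands are given by group. They ranked 257 and 248 among 837 microRNAs by mean level.

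In sgCYRANO cells no difference of either arm was detected by the deposited test. For miR-877-5p the authors' deposited table gives a log2 fold change of 0.12 (95% interval -0.45 to 0.70) and for miR-877-3p one of 0.10 (-0.42 to 0.62), each with an edgeR adjusted p of 0.984. The standard errors, 0.29 and 0.27, were close to the medians of 0.29 and 0.27 among the 50 microRNAs nearest in level. They thus follow the level, and do not measure the spread of these strands' own libraries alone.

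Neither arm passed the test in ZSWIM8 KO cells. The mean of miR-877-5p was 22.4 CPM in ZSWIM8 KO and 14.7 CPM in WT, about 158 and 56 reads. That of miR-877-3p was 31.2 CPM in ZSWIM8 KO and 22.4 CPM in WT, about 220 and 85 reads. In the authors' deposited table miR-877-5p had a log2 fold change of 0.60 (95% interval -0.10 to 1.29) and an edgeR adjusted p of 0.357. For miR-877-3p the authors' deposited table gives 0.48 (-0.14 to 1.10) and an edgeR adjusted p of 0.442. Both intervals run from just below 0 to past 1 on the log2 scale. Centred on the median at 10 CPM or more, which was itself 0.13, the log2 fold changes were 0.47 and 0.35.

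**Figure D4:**
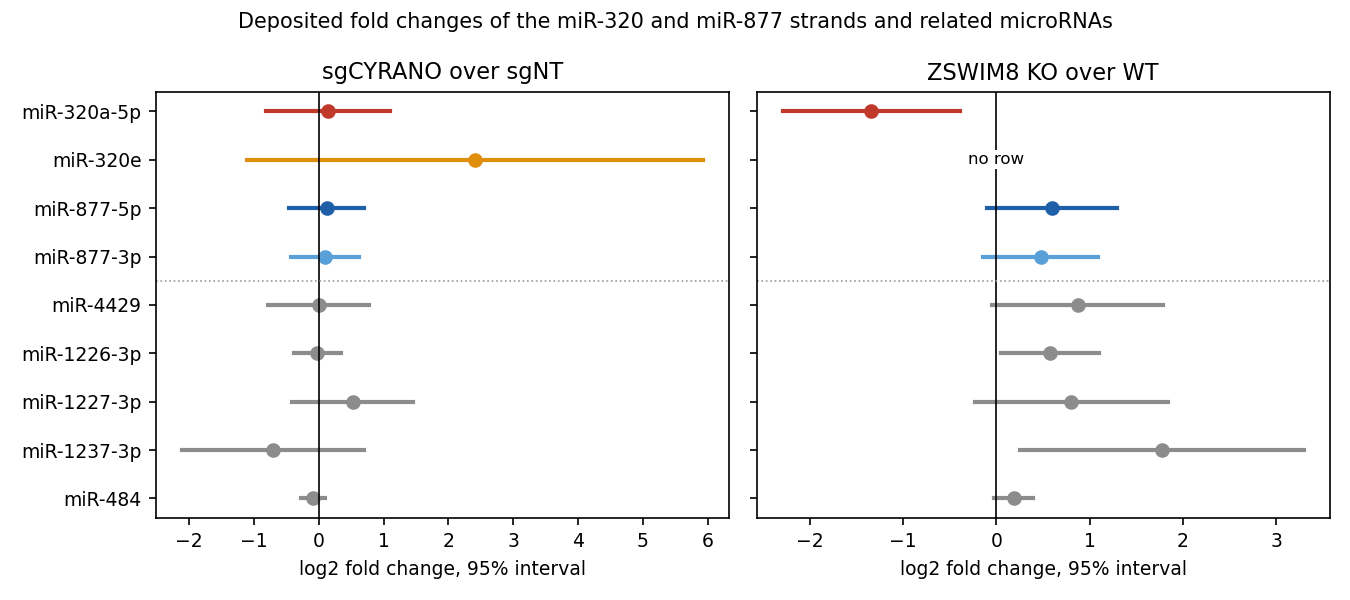
Points are log2 fold changes from the authors' deposited tables and lines their 95% intervals, sgCYRANO over sgNT on the left and ZSWIM8 KO over WT on the right, with the miR-320 and miR-877 strands above the dotted line and related microRNAs below it. On the left the interval of each plotted microRNA includes 0. On the right those of miR-320a-5p, miR-1226-3p and miR-1237-3p do not, although none of the 3 passed an adjusted p of 0.05.

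Both arms come from the same intron, so their changes could be set against each other. The log2 fold change of miR-877-5p less that of miR-877-3p was 0.12 in ZSWIM8 KO cells (95% interval -0.81 to 1.05) and 0.02 in sgCYRANO cells (-0.75 to 0.80). This was the only pair at 10 CPM or more in each comparison, with p = 0.795 and p = 0.952 from a normal reference in the fit over all microRNAs, and the errors of strands from the same libraries may be correlated. The ratio of 3p to 5p levels was 1.39 in ZSWIM8 KO and 1.52 in WT, and 1.20 in sgCYRANO and 1.23 in sgNT. In all 4 groups the 3p strand had the higher mean, as counted.

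The change of each arm was also compared between both comparisons. For miR-877-5p the log2 fold change in ZSWIM8 KO cells less that in sgCYRANO cells was 0.48 (95% interval -0.43 to 1.38), with an adjusted p of 0.533 over 294 microRNAs at 10 CPM or more in both tables, from a normal reference. For miR-877-3p it was 0.38 (-0.43 to 1.19), with an adjusted p of 0.573 on the same basis. Neither difference passed the threshold, and both intervals include 0.

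By distance over both log2 fold changes, among 293 other microRNAs at 10 CPM or more in both tables, the 3 nearest to miR-877-5p were miR-3074-5p, miR-130b-3p and miR-548h-5p. Their distances were 0.0326, 0.0377 and 0.0435. The partner strand miR-877-3p was at rank 14, with a distance of 0.126. In the authors' deposited table of the ZSWIM8 comparison miR-130b-3p, with a log2 fold change of 0.56 and means of 453 CPM in ZSWIM8 KO and 307 CPM in WT, passed with an edgeR adjusted p of 0.00164. Its change was of the size of that of miR-877-5p because it was picked by that likeness, and its level was far higher. Its pass is thus no support for a change of miR-877-5p. The search for microRNAs nearest to hsa-miR-320a-3p could not be made.

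Other mirtrons did not pass the test either. The hairpins of 11 listed ones were looked up, and all 11 matched a whole intron of a host gene on the same strand in GENCODE v29. Their list had 5 rows in the sgCYRANO comparison, of which 0 passed, against 0.119% of all 837 microRNAs. The median log2 fold change of the list was -0.36, against 0.01 over all microRNAs there. In the ZSWIM8 comparison the list had 7 rows, of which 0 passed, against 9.91% of all 868 microRNAs. Its median there was 0.14 against 0.08. On so few rows both counts are near the background, and nothing about mirtrons is read from them. At 10 CPM or more there was 1 row in each comparison, miR-1226-3p, from an intron of the helicase gene DHX30. It had 41.5 CPM in sgCYRANO and 42.2 CPM in sgNT, and 55.3 CPM in ZSWIM8 KO and 37.1 CPM in WT. The authors' deposited table gives a log2 fold change of 0.58 for ZSWIM8 KO (95% interval 0.05 to 1.10), with an edgeR adjusted p of 0.185.

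Next by level were miR-1227-3p, from an intron of PLEKHJ1, and miR-1237-3p, from an intron of the kinase gene RPS6KA4. Reads of miR-1227-3p were 9, 11 and 17 in sgCYRANO, or 4.87, 6.21 and 10.2 CPM, and 12, 6 and 9 in sgNT, or 5.21, 3.66 and 5.82 CPM, and these groups overlapped. Reads of miR-1237-3p were 4, 2 and 4 in sgCYRANO, or 2.16, 1.13 and 2.40 CPM, and 9, 5 and 4 in sgNT, or 3.91, 3.05 and 2.59 CPM. Each sgCYRANO library lay below each sgNT library here, on 10 and 18 reads in all. How often the groups separate in this way among all microRNAs was not counted, so nothing is read from it. The authors' deposited table gives miR-1237-3p a log2 fold change of -0.71 with an edgeR adjusted p of 0.980. For ZSWIM8 KO the authors' deposited table gives miR-1227-3p and miR-1237-3p log2 fold changes of 0.80 and 1.78, with edgeR adjusted p-values of 0.437 and 0.142. Their means were 6.26 and 3.91 CPM in ZSWIM8 KO and 3.53 and 1.05 CPM in WT.

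The other non-canonical microRNAs listed did not pass either, and miR-484 and miR-451a were far more abundant than the miR-320 and miR-877 strands. Listed as a capped hairpin, miR-484 averaged 1324 CPM in sgCYRANO and 1407 CPM in sgNT, and 1752 CPM in ZSWIM8 KO and 1537 CPM in WT. Its log2 fold changes in the authors' deposited tables were -0.09 and 0.19, with edgeR adjusted p-values of 0.980 and 0.323. The Dicer-independent erythroid microRNA miR-451a averaged 849 CPM in sgCYRANO and 775 CPM in sgNT, and 956 CPM in ZSWIM8 KO and 574 CPM in WT. For it the authors' deposited tables give 0.13 and 0.74, with edgeR adjusted p-values of 0.980 and 0.583. Of the microRNAs from snoRNA genes 7 had rows in each comparison and 0 passed. Over all microRNAs 0.119% passed for sgCYRANO and 9.91% for ZSWIM8 KO, so these counts are near the background. Median log2 fold changes of the snoRNA list were 0.29 for sgCYRANO and 0.01 for ZSWIM8 KO. The 3 most abundant were miR-664a-3p, miR-1248 and miR-1292-5p, and the highest value among them was that of miR-1248 in the authors' deposited sgCYRANO table, 0.60, with an edgeR adjusted p of 0.816.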

How the data were processed

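MicroRNAs were sequenced in 12 libraries, 3 in each of 4 groups. Tools named in the submitters' processing notes, without roles, are edgeR, featureCounts, STAR, FastQC 0.11.2 and bcl2fastq, and the build is hg19. The sources used here do not give how reads shared by near-identical strands were counted, so miR-320 strands are uncertain. The data were the authors' deposited tables of 2 edgeR comparisons. Per the file headers they hold, for each microRNA, a fold change and a mean CPM, both as log2, an F statistic (used as a score), and a p-value with its adjusted form. Recomputed over each whole table by the Benjamini-Hochberg method, adjusted p-values met those deposited to within 1.09e-06.

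Group means were computed by inverting the deposited log2 values with prior counts of 2 and 0.125. The group means of a table summed to 999943 or 999948, so the fit was fed values already scaled to library totals, and its p-values carry no account of true depth. Library totals are those for which low group sums are whole reads: under 2 CPM they accounted for all 336 low values in sgCYRANO, 345 in sgNT, 344 in ZSWIM8 KO and 363 in WT, and for at most 33 when raised or lowered by 1%. They cannot be tied to replicate numbers. Reads per library were decoded for the sgCYRANO comparison with a model of the authors' fit on CPM rounded to 3 decimals, which was worked out on these tables over several versions. It gave 1 solution for 548 of 554 microRNAs under 13 CPM. In simulated data 364 of 517 had 1 solution, and all 364 were the true reads. The simulated data were made with the same model, so they could not check that the authors' fit follows it. For the ZSWIM8 comparison the model could not be fitted to rounding error.

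Standard errors were found from each deposited fold change and the normal quantile of its p, and gave 95% intervals. Differences were read against the normal distribution, and their p-values adjusted as above. The simulated data drawn for this step had normal errors of the same standard errors. They therefore could not check whether the deposited p-values give normal standard errors. Python 3.11.15, numpy 2.4.6, scipy 1.17.1 and pandas 2.3.3 were used. Sequences are from RefSeq (GRCh38.p14), and 3 of the 4 strands were matched. The tables give no coordinates. The named microRNAs are all members, the 3 nearest to miR-877-5p, any row of the lists that passed and the 3 most abundant of each list, cell type markers, and miR-7-5p. Those sharing a seed with a member were to be named too, and none was found for the matched members. The added miR-4429 shares its seed with miR-320b, which was not analysed here. Members and lists were chosen with earlier results of these data known. The design allowed for counts per library. The tables held comparisons, and the deposited tests were used. The deposited p-values do not measure the spread of a strand's own libraries alone. For miR-320a-5p in sgCYRANO against sgNT, the standard error was 0.488. The median among the 50 microRNAs nearest in level was 0.487.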

Additional observations from a re-analysis of the deposited data

How the results depend on the processing

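Of 45 alternative values for the fold changes of the miR-320 and miR-877 strands, 42 kept their direction and, where tested, their side of the threshold, or, as ratios with no test, moved by less than 1 standard error. Some of the 42 were fixed in advance, so the count overstates how far the results were tried. Another adjustment set, or F with 4 denominator degrees of freedom, leaves the fold change as it was and cannot turn its direction. The 3 values outside the 42 were these. For miR-320a-5p in ZSWIM8 KO cells, centring on the median gave -1.47 and on the trimmed mean -1.49, both past the threshold. By construction this follows from the centre lying above 0, at 0.13 and 0.15. For miR-320e in sgCYRANO cells, a prior of 2 CPM gave a log2 ratio of 0.35 in place of 2.41, and with no prior no value could be given. With the deposited F read with 4 denominator degrees of freedom, 3 microRNAs in place of 86 passed in the ZSWIM8 comparison. The other 7 counts were within 1.5 times. The 4 alternatives for the differences between comparisons kept direction and side. Leaving out each recovered library in turn gave log2 ratios of 0.05 to 0.32 for miR-320a-5p in sgCYRANO cells. The exact permutation test over these libraries was chosen after the data were seen. Its smallest possible p is 0.1, so it could not have passed 0.05.

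No paired analysis was possible because the tables hold no values per library with a replicate number. For the same reason a replicate block, leaving out replicates by number, DESeq2, limma-voom and a fit scaled by TMM were not run. The sum of miR-320 at 10 CPM or more, and without its most abundant row, gave no ratio. At this depth 3 reads over a group's 3 libraries come to 0.567 CPM in sgCYRANO and 0.546 CPM in sgNT, and to 0.425 CPM in ZSWIM8 KO and 0.788 CPM in WT.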
